A study of Homo sapiens with 10 samples.

Results

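The transcripts described here are those of 6 transcription factors of the mesenchymal programme, ZEB1, ZEB2, SNAI1, SNAI2, TWIST1 and TWIST2, and of 2 genes by which the programme is commonly read, VIM (vimentin) and CDH2 (N-cadherin). They were taken by gene symbol from the deposited count table, with earlier results of these data known, and all 8 were found among its 58735 genes. All 8 passed the filter on low counts, as did 14504 genes in all, and these 14504 were tested. The measurements come from CH157-MN, an established human meningioma line, profiled by bulk poly(A) RNA sequencing in 10 libraries. In 5 of them the cells had been given 100 nM of an antibody-drug conjugate (ADC), a humanised antibody to the somatostatin receptor SSTR2 loaded with the tubulin poison MMAF (monomethyl auristatin F), and were harvested 3 days later. The other 5 libraries came from cells given phosphate-buffered saline (PBS), for which the labels give no harvest day. No allele or further agent is named for either group, and the labels assign no group to the antibody alone, to free MMAF or to a non-binding conjugate. All libraries come from a single line, and the labels do not say whether the replicates were separate cultures, so the p-values measure the spread between these libraries, which may be technical.

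ZEB and SNAI proteins are zinc-finger repressors that bind E-box sequences in the promoters of epithelial genes, E-cadherin (CDH1) foremost, and recruit corepressor complexes to them. TWIST proteins are basic helix-loop-helix factors that act as dimers with E proteins, and ID proteins limit them by binding the E proteins. In epithelial tumours these factors drive epithelial-mesenchymal transition, whereas the arachnoid cells from which meningiomas arise already carry mesenchymal features such as vimentin filaments. The miR-200 family and ZEB1 and ZEB2 are known to repress each other.

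Total counts were 28638057 to 36463724 in ADC libraries and 28262162 to 34473795 in PBS libraries. A count of 0 allows up to 3 counts, if each read pair was counted once. That equalled 0.082 to 0.106 CPM (counts scaled to the same library total, with TMM factors), and such limits cover counting error only. Markers of meningioma and arachnoid cells summed to 538 to 606 CPM in ADC libraries and 435 to 509 CPM in PBS libraries. Of the 9 markers 4 were tested and 1 was called higher (TIMP3). TIMP3 (mean 326 CPM in ADC and 188.6 CPM in PBS libraries) and FOXD1 (227.7 CPM in ADC and 254.5 CPM in PBS libraries, not called) made up most of the sum. PTGDS, CDH11 and CRABP2 were too low to test, and ALDH1A2 and PGR were at 0 throughout. SSTR2, the receptor that the antibody is directed to, had 0.430 ± 0.103 CPM in ADC libraries and 0.297 ± 0.263 CPM in PBS libraries (SD, n = 5 each), and was not called (log2 fold change 0.54, adjusted p = 0.50). Epithelial markers summed to 0.309 to 0.848 CPM in ADC and 0.353 to 0.892 CPM in PBS libraries (ESRP1 and OVOL1 at 0), and leukocyte markers to 2.16 to 3.01 CPM in ADC and 0.613 to 2.82 CPM in PBS libraries, with 10 of 17 at 0. Endothelial markers summed to 12.9 to 14.5 CPM in ADC and 10.2 to 11.5 CPM in PBS libraries, with 1 of 9 called higher (PECAM1) and EMCN at 0. The part of these differences in the results below was not tested.

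The miR-200 family is shown first, because the double repression between it and ZEB1 and ZEB2 is carried by short sequences and both ends of it could be looked up. The mature forms fall into 2 groups that differ in the seed (bases 2 to 8, in capitals), with 3 members in the first group and 2 in the second. The sequences are those of RefSeq (GRCh38.p14).
hsa-miR-200b-3p: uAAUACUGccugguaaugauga
hsa-miR-200c-3p: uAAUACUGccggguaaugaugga
hsa-miR-429: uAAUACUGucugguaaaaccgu
hsa-miR-200a-3p: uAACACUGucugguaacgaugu
hsa-miR-141-3p: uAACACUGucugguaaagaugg

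The target sequence of the first seed is CAGTATT and that of the second is CAGTGTT. For each gene except SNAI2, which was not searched, the coding transcript with the longest 3′ untranslated region (UTR, from GENCODE release 29, GRCh38) was taken. In that region CAGTATT occurred 6 times in ZEB1 and 5 times in ZEB2, and CAGTGTT occurred 3 times in ZEB1 and 4 times in ZEB2. The 3′ UTR spans 2549 bases in ZEB1 and 5370 bases in ZEB2, and all of the matches lie within their first 2000 bases. Among 5792 genes with at least 2000 bases of 3′ UTR, 21.5% held any CAGTATT in the first 2000 bases, 1 gene, ZEB1 itself (0.0173%), held 6 or more and 2 genes, ZEB1 and ZEB2 (0.0345%), held 5 or more. For CAGTGTT the share with any was 25.2%, and 26 genes (0.449%) held 3 or more, ZEB1 among them, and 2 genes (0.0345%), ZEB2 and 1 other, held 4 or more. Neither sequence occurred in the 3′ UTRs examined of SNAI1, TWIST1, TWIST2, VIM or CDH2. The 6 sites printed show both seed matches, in capitals, in both genes, on the strand of the gene.
ZEB1, chr10:31527712-31527734 (+ strand): atgctaaatccgcttCAGTATTt
ZEB1, chr10:31528562-31528584 (+ strand): tgtcttcaaacctggCAGTATTa
ZEB1, chr10:31528782-31528804 (+ strand): tgagatttgatttaaCAGTGTTa
ZEB2, chr2:144389052-144389074 (- strand): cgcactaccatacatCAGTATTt
ZEB2, chr2:144388989-144389011 (- strand): cgcactacaatgcatCAGTATTa
ZEB2, chr2:144388710-144388732 (- strand): agtgccatccttgtaCAGTGTTa

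These matches are a description of the sequences, not of binding. Mature microRNAs are not captured by poly(A) selection, so only host transcripts could be read. The 6 precursor rows MIR200A, MIR200B, MIR200C, MIR141, MIR429 and MIR205 held 0 counts in all 10 libraries. So did the host genes MIR200CHG and MIR205HG (miR-205 is another microRNA known to target ZEB1 and ZEB2). The full match to the miR-205 seed, ATGAAGG, occurred 1 time in the 3′ UTR searched of ZEB1 and 0 times in that of ZEB2. If each read pair was counted once, the counts of 0 leave MIR200CHG and MIR205HG at no more than 0.106 CPM in any library. No other host gene of these microRNAs was read. The counts say nothing of the level of the mature forms.

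The design holds the single contrast of ADC with PBS. ZEB2 and TWIST2 rose after ADC, CDH2 fell, and ZEB1, SNAI1, SNAI2, TWIST1 and VIM did not pass the test. The changes were small, 1.24-fold for ZEB2, 1.17-fold for TWIST2 and 0.921-fold for CDH2. Of the 8 genes 2 were called higher and 1 lower at an adjusted p under 0.05 (edgeR's quasi-likelihood test), where 20.8% of all tested genes were called in either direction, 10.8% higher and 10% lower. The 3 calls are 37.5% of the 8 genes, a count too small to read against that background. The median log2 fold change (ADC minus PBS throughout) was 0.06 over the 8 genes and -0.00 over all tested genes, and the median size of change, regardless of sign, was 0.12 over all tested genes and 0.23 over the called ones. Because the libraries are bulk RNA, a change in how many cells express a gene and a change in RNA per cell cannot be told apart.

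**Figure D1:**
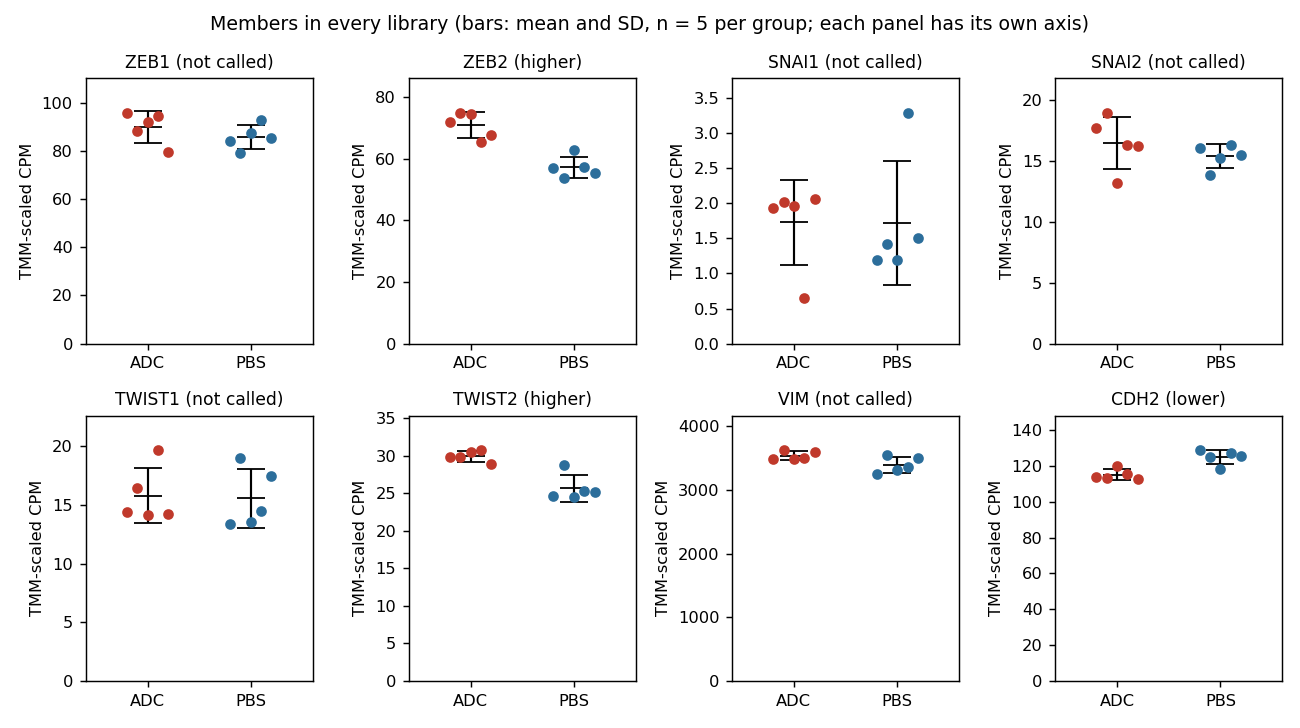
TMM-scaled CPM of the 8 genes in each of the 5 ADC and 5 PBS libraries (points), with the mean and SD of each group (bars), 1 panel per gene with its own vertical axis from 0. All 5 ADC libraries lie above all 5 PBS libraries for ZEB2, by 65.6 against 62.9 CPM at the closest, and for TWIST2, by 28.84 against 28.81 CPM.

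ZEB2 (ENSG00000169554, chr2:144364364-144524583 on the minus strand, hg38) had 72.0, 74.9, 74.5, 65.6 and 67.6 CPM in ADC libraries 1 to 5, against 57.1, 53.8, 62.9, 57.3 and 55.4 CPM in PBS libraries 1 to 5. Every ADC library was above every PBS library, and the gap between the lowest ADC and the highest PBS library was 65.6 against 62.9 CPM. The means were 70.9 ± 4.18 CPM in ADC and 57.3 ± 3.45 CPM in PBS cells (SD, n = 5 each). The log2 fold change was 0.31 (SE 0.0494, 95% interval 0.21 to 0.41, adjusted p = 2.4e-05), and 80.9% of tested genes changed by less in either direction. The intervals hold for 1 gene at a time and are not adjusted for the number of genes. Groups of CPM that do not overlap were found for 14.2% of all tested genes, in 7.29% with ADC above and in 6.95% with ADC below. ZEB2 is a zinc-finger and homeodomain repressor with its main developmental roles in the neural crest and nervous system.

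Its paralog ZEB1 (ENSG00000148516, chr10:31318495-31529814, plus strand), a repressor of the same structure that binds the same E-boxes, had 95.7, 88.1, 91.8, 94.6 and 79.6 CPM in ADC libraries and 84.0, 79.0, 87.5, 92.9 and 85.3 CPM in PBS libraries. The groups overlapped over most of their range. With means of 90.0 ± 6.51 CPM in ADC and 85.8 ± 5.08 CPM in PBS cells, its log2 fold change of 0.07 had an interval of -0.03 to 0.17 (SE 0.0481, adjusted p = 0.33). The whole ZEB2 interval (0.21 to 0.41) lies above that of ZEB1, but the difference between the 2 genes was not itself tested.

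**Figure D2:**
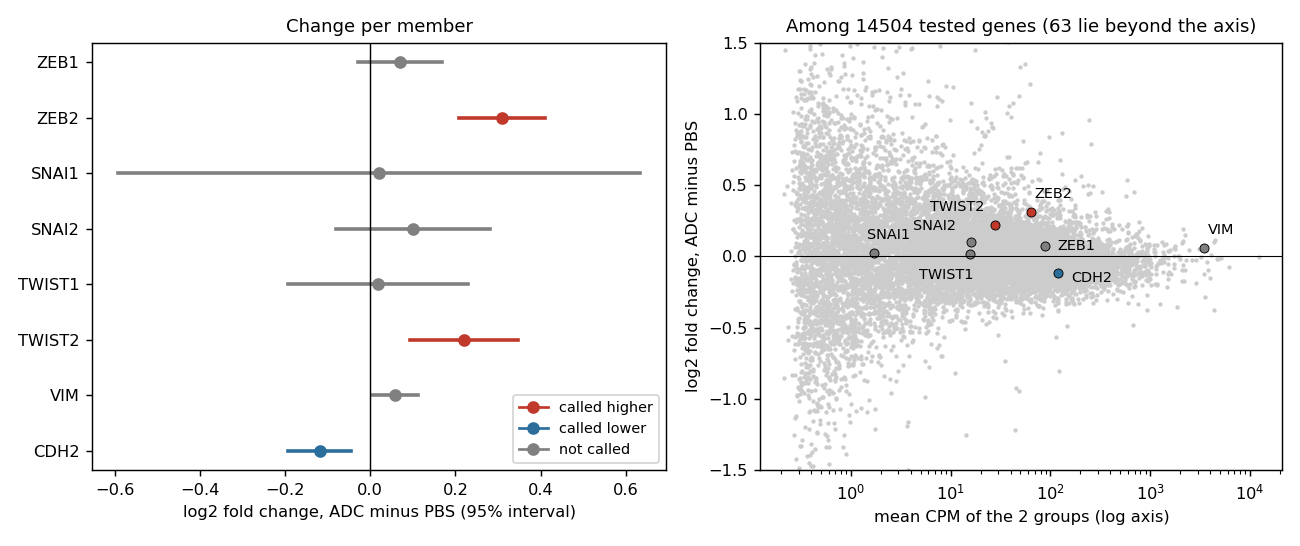
Left, log2 fold change (ADC minus PBS) of each of the 8 genes with its 95% interval, red where called higher, blue where called lower, grey where not called. Right, log2 fold change against mean CPM (log axis) for 14504 tested genes in grey with the 8 genes labelled, where 63 genes lie beyond the vertical axis. ZEB2 at 0.31 is the member farthest from 0, and the interval of SNAI1, from -0.59 to 0.63, is the widest.

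TWIST2 (ENSG00000233608, chr2:238848032-238910543, plus strand), a helix-loop-helix factor of dermis and skeletal tissue, had 29.8, 29.8, 30.4, 30.7 and 28.8 CPM in ADC libraries, against 24.6, 28.8, 24.5, 25.3 and 25.1 CPM in PBS libraries. The ADC libraries were again all above the PBS libraries, although PBS library 2 (28.81 CPM) almost reached ADC library 5 (28.84 CPM). Means were 29.9 ± 0.726 CPM in ADC and 25.7 ± 1.79 CPM in PBS cells, and the log2 fold change was 0.22 (SE 0.0618, 95% interval 0.09 to 0.35, adjusted p = 0.01). Of all tested genes 71.4% changed by less.

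TWIST1 (ENSG00000122691, chr7:19020991-19117672, minus strand), the better known regulator of mesenchyme and skull sutures, had 14.4, 16.5, 14.2, 19.7 and 14.2 CPM in ADC libraries and 13.4, 19.0, 13.5, 14.5 and 17.4 CPM in PBS libraries. One or a pair of high libraries in each group set the spread, and the groups overlapped fully. Its log2 fold change was 0.02 with an interval of -0.19 to 0.23 (SE 0.103, adjusted p = 0.93), so a change of the size seen for TWIST2 lies inside that interval only near its upper end.

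Neither SNAI gene was called. SNAI2 (ENSG00000019549, chr8:48917604-48921740, minus strand), known as SLUG, had 17.7, 19.0, 13.2, 16.3 and 16.3 CPM in ADC libraries and 16.1, 13.8, 15.3, 16.3 and 15.5 CPM in PBS libraries, and the PBS values lay within the ADC range. Its log2 fold change was 0.10 (SE 0.0885, interval -0.08 to 0.28, adjusted p = 0.48). SNAI1 (ENSG00000124216, chr20:49982999-49988886, plus strand), the SNAIL repressor whose protein is short-lived and controlled largely after transcription, had 67, 74, 67, 19 and 59 counts in ADC libraries and 40, 48, 35, 93 and 51 counts in PBS libraries. In ADC cells 4 libraries lay between 1.94 and 2.07 CPM and replicate 4 at 0.653 CPM, whereas in PBS cells 4 lay between 1.19 and 1.5 CPM and replicate 4 at 3.29 CPM. The log2 fold change of SNAI1 was 0.02 (SE 0.300, interval -0.59 to 0.63, adjusted p = 0.97). Its sign turned when 8 of the 10 libraries were left out one at a time, and without PBS replicate 4 it was 0.38 (adjusted p = 0.41), without ADC replicate 4 0.23 (adjusted p = 0.63). At this spread neither a rise nor a fall of SNAI1 by a moderate factor was detectable.

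CDH2 (ENSG00000170558, chr18:27950966-28177446, minus strand), the classical cadherin of neural and mesenchymal cells, had 114, 113, 120, 116 and 113 CPM in ADC libraries, against 129, 125, 118, 127 and 126 CPM in PBS libraries. PBS library 3 lay inside the ADC range, and the other 4 PBS libraries lay above all ADC libraries. The means were 115 ± 2.95 CPM in ADC and 125 ± 4.02 CPM in PBS cells, with a log2 fold change of -0.12 (SE 0.0360, 95% interval -0.19 to -0.05, adjusted p = 0.017), a size near the middle of all tested genes, of which 48.6% changed by less. The call did not hold with scaling by library size alone (-0.10, adjusted p = 0.061) or without PBS replicate 1 (-0.11, adjusted p = 0.053).

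VIM (ENSG00000026025, chr10:17228259-17237593, plus strand), which encodes the main intermediate filament protein of mesenchymal cells, had 3485, 3623, 3487, 3496 and 3599 CPM in ADC libraries and 3259, 3544, 3313, 3366 and 3506 CPM in PBS libraries. The 2 highest PBS libraries lay above the 3 lowest ADC libraries. With means of 3538 ± 67.5 CPM in ADC and 3398 ± 123 CPM in PBS cells, the log2 fold change was 0.06 (SE 0.0268, interval 0.00 to 0.11, adjusted p = 0.13). VIM was called under 3 of the 18 alternatives tried, among them scaling by library size alone (0.08, adjusted p = 0.015) and leaving out PBS replicate 2 (0.07, adjusted p = 0.036), and its value was at most 0.08 in all 18. Of its exonic bases 12.4% are shared with VIM-AS1 on the other strand and 12.0% with AL133415.1. The strand setting of the counting is not given, so reads of these pairs cannot be told apart. VIM-AS1 itself had a log2 fold change of 0.19 (adjusted p = 0.24), 8.52 ± 0.878 CPM in ADC and 7.46 ± 0.981 CPM in PBS cells.

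The other antisense and neighbouring genes whose counts were read were low or little changed. AC003986.2, AC110015.1 and AL133415.1 were not read. Exonic overlap with a gene on the other strand amounted to 6.94% for TWIST1 (AC003986.2), 5.18% for ZEB2 (ZEB2-AS1), 4.23% for ZEB1 (ZEB1-AS1) and 2.75% for CDH2 (AC110015.1), and there was none for SNAI1, SNAI2 and TWIST2. ZEB2-AS1 held 1 count in all, in PBS library 2, and 0 in every ADC library. ZEB1-AS1 had 4.54 ± 0.136 CPM in ADC and 4.66 ± 0.610 CPM in PBS cells (log2 fold change -0.04, adjusted p = 0.88). TWISTNB, a neighbour of TWIST1 that encodes a subunit of RNA polymerase I, fell by 0.14 on the log2 scale (adjusted p = 0.029), the only called gene of 5 tested in this list. It lost its call under 6 of the 18 alternatives.

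Between genes, levels were compared only per kilobase of the gene length listed in the table (RPKM). VIM stood far above the rest at 686 ± 13 RPKM in ADC and 659 ± 24 RPKM in PBS cells, rank 32 of 12050 tested protein-coding genes. CDH2 followed with 23.2 ± 0.60 RPKM in ADC and 25.2 ± 0.81 RPKM in PBS cells, above 84.1% of protein-coding genes, and TWIST2 with 15.9 ± 0.39 RPKM in ADC and 13.7 ± 0.95 RPKM in PBS cells, above 74.1%. No library of either group put these 3 genes in another order.

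Of the remaining factors, ZEB1 had 10.4 ± 0.75 RPKM in ADC and 9.91 ± 0.59 RPKM in PBS cells, and TWIST1 had 7.76 ± 1.2 RPKM in ADC and 7.65 ± 1.2 RPKM in PBS cells. These neighbours overlapped across libraries in both groups, whereas the other neighbours in the order did not. SNAI2 lay below them at 4.86 ± 0.63 RPKM in ADC and 4.54 ± 0.29 RPKM in PBS cells, then ZEB2 at 2.83 ± 0.17 RPKM in ADC and 2.29 ± 0.14 RPKM in PBS cells, and SNAI1 at 1.02 ± 0.36 RPKM in ADC and 1.02 ± 0.53 RPKM in PBS cells. The place of ZEB2 depends on the length used, because its listed length of 25058 bases joins all annotated exons. Per kilobase of its longest coding transcript (9583 bases) it had 7.40 ± 0.44 in ADC and 5.98 ± 0.36 in PBS cells, overlapping with SNAI2 on the same scale (6.80 ± 0.88 in ADC and 6.35 ± 0.40 in PBS cells). On that scale ZEB1 (12.7 to 15.3 in ADC and 12.6 to 14.8 in PBS libraries) no longer overlapped with TWIST1 (8.50 to 11.8 in ADC and 8.01 to 11.4 in PBS libraries).

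The paralog ratios within each library followed from these values. On the transcript-length scale the ratio of ZEB2 to ZEB1 was 0.517 ± 0.044 in ADC libraries (0.453 to 0.556) and 0.438 ± 0.025 in PBS libraries (0.403 to 0.470), so that the ranges overlapped slightly. The ratio of TWIST2 to TWIST1 was 2.28 ± 0.28 in ADC libraries (1.85 to 2.55) and 1.98 ± 0.22 in PBS libraries (1.71 to 2.19), with wide overlap. SNAI2 to SNAI1 ranged from 4.69 to 17.4 in ADC and from 3.44 to 9.41 in PBS libraries, with the highest value in ADC replicate 4 and the lowest in PBS replicate 4. ZEB1 and TWIST2 were thus the more abundant paralogs in both groups, and no test was made of the ratios, whose genes were chosen with earlier results known.

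**Figure D3:**
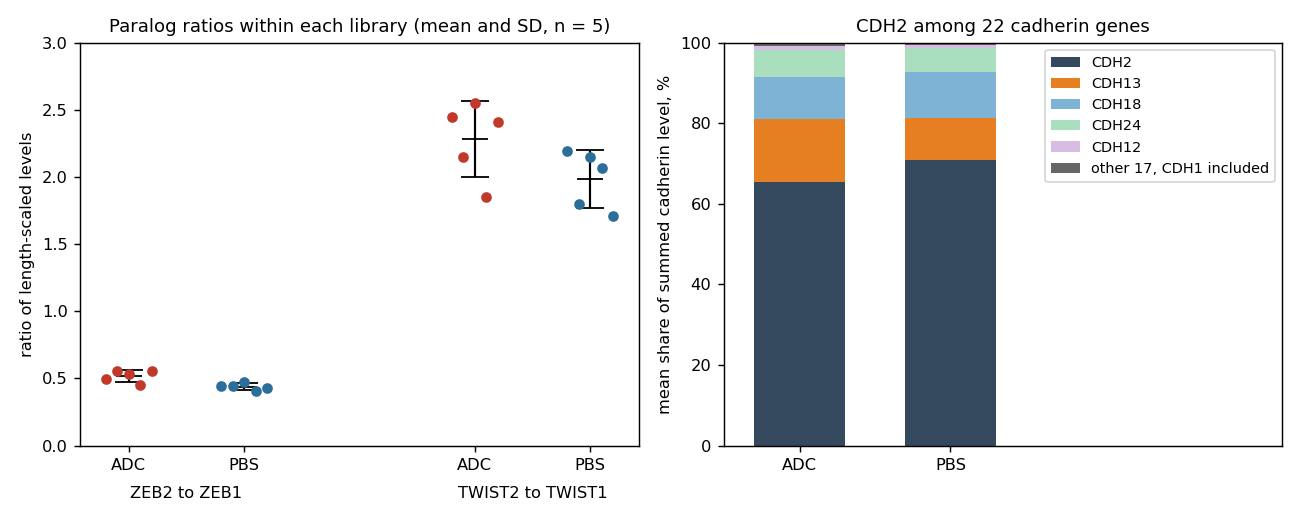
Left, ratio of ZEB2 to ZEB1 and of TWIST2 to TWIST1 in each library (points; levels per kilobase of the longest coding transcript), with the mean and SD over 5 ADC and 5 PBS libraries. Right, mean share of each cadherin in the level per kilobase summed over 22 cadherin genes, in percent. CDH2 holds 65.4% in ADC and 71.0% in PBS cells, and the share of CDH13 is 15.7% in ADC and 10.2% in PBS cells.

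CDH2 was the main cadherin transcript in both groups. Of the level per kilobase summed over 22 cadherin genes it held 65.4% ± 1.0 in ADC libraries (64.4% to 67.1%) and 71.0% ± 0.79 in PBS libraries (70.1% to 72.0%), with no overlap. CDH13 (T-cadherin), a cadherin anchored by a lipid in place of a cytoplasmic tail, held 15.7% ± 0.97 in ADC and 10.2% ± 0.28 in PBS libraries. CDH13 was also the only called gene among the 6 other cadherins tested. It had 62.5 ± 3.31 CPM in ADC and 40.5 ± 1.44 CPM in PBS cells (log2 fold change 0.62, SE 0.0493, adjusted p = 4.8e-11), without overlap. The median over the 6 was 0.21, against -0.00 over all tested genes, and the remaining 15 listed cadherins were too low to test. CDH11, a cadherin of mesenchymal tissues, had only 3 to 15 counts in ADC and 0 to 13 counts in PBS libraries.

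E-cadherin itself was at the floor. CDH1 had 1 count in ADC library 3 and 0 in the other 4 ADC and all 5 PBS libraries. EPCAM, an epithelial adhesion molecule, had 2 counts in ADC library 3 and 0 in the other ADC libraries, against 10, 0, 1, 1 and 0 counts in PBS libraries. CRB3, an epithelial polarity gene known as a target of ZEB1, had 2, 0, 5, 0 and 0 counts in ADC libraries and 0 in all PBS libraries. CDH1 was not tested. A fall of CDH1 could not be detected from this floor, nor could a rise within it. No library of either group held more than 1 count, so no rise above the floor was seen.

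Where the promoters of these genes could be read, the E-box CACCTG bound by ZEB and SNAI proteins (CAGGTG on the other strand) was counted in windows from 250 bases before to 50 bases after each RefSeq start (GRCh38.p14). Of 35116 such windows of 300 bases in the annotation 20.6% held it on either strand. The window of CRB3 held 5 copies, a number reached or passed by 33 windows (0.094%), and is printed first as an example of a promoter dense in these boxes. The windows of ZEB2 and TWIST2, the 2 factors that rose, held 0 and are printed for comparison. Those of VIM and CDH2 also held 0. Capitals mark the motif, and the windows lie at chr19:6464021-6464320 (plus strand), chr2:144520070-144520369 (minus strand) and chr2:238847835-238848134 (plus strand).
CRB3: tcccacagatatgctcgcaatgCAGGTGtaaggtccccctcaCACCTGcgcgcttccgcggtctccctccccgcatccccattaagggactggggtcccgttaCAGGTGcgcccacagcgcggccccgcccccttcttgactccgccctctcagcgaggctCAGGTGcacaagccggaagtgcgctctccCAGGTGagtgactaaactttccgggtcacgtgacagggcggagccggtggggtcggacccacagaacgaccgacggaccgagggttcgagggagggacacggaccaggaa
ZEB2: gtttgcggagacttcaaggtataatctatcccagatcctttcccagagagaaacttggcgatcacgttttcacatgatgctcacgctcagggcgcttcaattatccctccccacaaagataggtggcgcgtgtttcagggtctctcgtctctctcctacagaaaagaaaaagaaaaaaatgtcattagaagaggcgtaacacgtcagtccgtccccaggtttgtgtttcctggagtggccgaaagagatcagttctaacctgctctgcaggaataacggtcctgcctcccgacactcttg
TWIST2: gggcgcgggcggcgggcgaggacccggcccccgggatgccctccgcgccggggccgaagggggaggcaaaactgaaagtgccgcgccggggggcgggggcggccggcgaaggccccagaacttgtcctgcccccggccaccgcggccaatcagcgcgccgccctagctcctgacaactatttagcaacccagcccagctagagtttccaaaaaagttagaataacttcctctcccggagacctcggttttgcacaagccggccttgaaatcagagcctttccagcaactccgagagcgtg

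A match is no evidence of binding, and its absence from these windows says nothing of sites elsewhere. Of 7 windows listed for ZEB1, 1 held 3 copies of the motif, a count reached by 0.635% of all windows, 1 held a single copy and the rest held none.

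Genes that act with these factors were described from lists of related genes, read from the same fit and set against the 20.8% of all tested genes that were called. Values in brackets and after "fell by" are log2 fold changes. Most lists held called genes in both directions. Among 16 tested of 23 other transcription factors of mesenchyme 3 rose and 1 fell (median log2 fold change 0.13). PRRX1, a homeobox factor of limb and craniofacial mesenchyme, rose to 101 ± 5.41 CPM in ADC cells, against 88.1 ± 3.18 CPM in PBS cells (0.20, adjusted p = 0.00063). TBX3 (0.22, adjusted p = 0.012) and FOXF1 (0.21, adjusted p = 0.018) also rose, with groups that overlapped and, for FOXF1, without a call when ADC replicate 1 or PBS replicate 1 was left out. TEAD4, a DNA-binding partner of YAP and TAZ, fell by 0.13 (adjusted p = 0.0078).

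**Figure D4:**
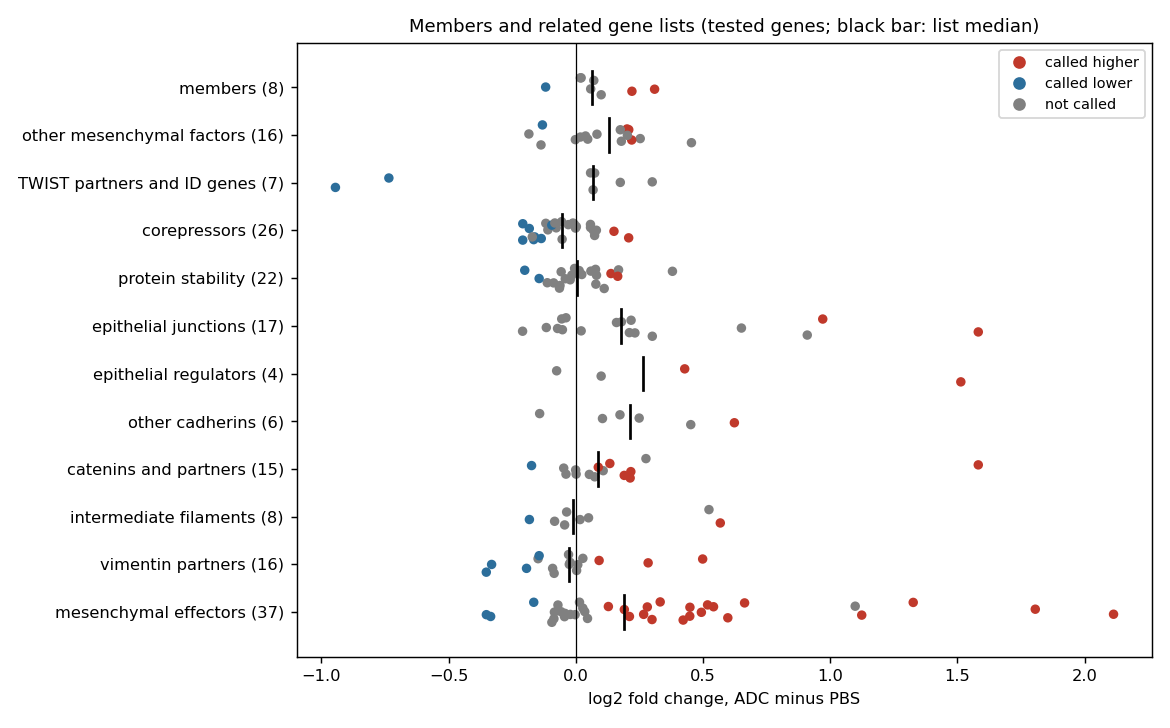
Log2 fold change (ADC minus PBS) of each tested gene in the 8 members and 11 related gene lists (number tested in brackets), red where called higher, blue where called lower, grey where not called, with a black bar at each list's median. ID1 and ID3 lie far to the left of the other TWIST partners, and the mesenchymal effector genes spread to the right with 19 of 37 called higher.

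The falls of ID3 and ID1 were the largest among the called genes of the related lists. ID3 had 33.4 ± 1.73 CPM in ADC and 64.3 ± 3.53 CPM in PBS cells (-0.95, SE 0.0523, adjusted p = 1.5e-14), and ID1 had 26.2 ± 2.43 CPM in ADC and 43.5 ± 1.28 CPM in PBS cells (-0.74, SE 0.0613, adjusted p = 1.5e-10), neither with overlap. Both encode inhibitors that bind E proteins and keep them from TWIST and other partners. None of the 3 E protein genes passed the test, at 0.06 for TCF3 (adjusted p = 0.33), 0.17 for TCF4 (adjusted p = 0.096) and 0.07 for TCF12 (adjusted p = 0.32). TCF4 was called without PBS replicate 3 (0.22, adjusted p = 0.043). ID2, at 1.11 ± 0.421 CPM in ADC and 0.893 ± 0.425 CPM in PBS cells, was not called either (0.30, adjusted p = 0.61). In all, 2 of 7 tested genes of this list of 9 were called, both lower.

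All 26 listed cofactors of ZEB and SNAI proteins were tested, of which 2 rose and 7 fell (34.6% called, median -0.06). With scaling by library size alone 3 were called higher and 4 lower. Most are corepressors, but the counts include the acetyltransferase coactivator genes EP300 (0.15, adjusted p = 0.033) and KAT2B (-0.18, adjusted p = 0.036). PRMT5, an arginine methyltransferase, had 124 ± 5.22 CPM in ADC and 143 ± 2.90 CPM in PBS cells (-0.21, adjusted p = 7.1e-05). EED, a subunit of the Polycomb repressive complex PRC2, fell by 0.21 (adjusted p = 0.0046) and AJUBA, a LIM-domain adaptor that binds SNAI1, by 0.14 (adjusted p = 0.0072), while MTA3, a subunit of the NuRD complex, rose (0.21, adjusted p = 0.0054). The C-terminal binding proteins that ZEB factors recruit had log2 fold changes of -0.00 for CTBP1 (adjusted p = 0.99) and -0.06 for CTBP2 (adjusted p = 0.28).

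Of 22 tested genes that govern the stability or activity of the ZEB, SNAI and TWIST proteins 2 rose and 2 fell, 18.2% against the 20.8% of all genes. BTRC, the F-box protein that marks SNAI1 for degradation, fell by 0.20 (adjusted p = 0.029) and PAK1, a kinase of SNAI1, by 0.14 (adjusted p = 0.034). The ubiquitin ligase gene STUB1 (0.16, adjusted p = 0.035) and the phosphatase gene CTDSP1 (0.14, adjusted p = 0.036) rose. Each of these 4 lost its call under 5 to 7 of the 18 alternatives, mostly when a single library was left out. With scaling by library size alone neither BTRC nor PAK1 was called. Protein levels were not measured.

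Of 35 epithelial junction and polarity genes 18 were too low to test, and of the 17 tested 2 rose and 15 were not called (11.8% called, median 0.18). The uncalled genes differed widely in level. KRT18 had 208 ± 5.16 CPM in ADC and 216 ± 12.8 CPM in PBS cells. CLDN1 had 205.9 ± 4.04 CPM in ADC and 211.5 ± 5.01 CPM in PBS cells, and TJP1 103 ± 4.09 and 102 ± 6.42 CPM. CLDN4, by contrast, had 0.351 ± 0.166 CPM in ADC and 0.316 ± 0.136 CPM in PBS cells. JUP, which encodes plakoglobin, a protein of both adherens junctions and desmosomes, rose to 21.2 ± 4.52 CPM in ADC cells, against 7.06 ± 0.824 CPM in PBS cells (1.58, SE 0.116, adjusted p = 9.7e-12). KRT7, a simple epithelial keratin, had 1.43 ± 0.282 CPM in ADC and 0.725 ± 0.136 CPM in PBS cells (0.97, adjusted p = 0.021), and was not called without ADC replicate 4 or without PBS replicate 1. Among 18 regulators of epithelial identity 4 could be tested and 2 rose. KLF5 had 18.2 ± 1.80 CPM in ADC and 13.6 ± 1.18 CPM in PBS cells (0.43, adjusted p = 0.00044), and EHF 0.792 ± 0.315 CPM in ADC and 0.275 ± 0.140 CPM in PBS cells (1.51, adjusted p = 0.013). EHF was not called without ADC replicate 1 (adjusted p = 0.058). It ranged from 0.547 to 1.19 CPM in ADC and from 0.0892 to 0.471 CPM in PBS libraries. It thus passed the filter on low counts through the group where it was high, which limits its call.

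The cytoplasmic partners of cadherins included 6 genes that rose and 1 that fell of 15 tested (46.7% called; median 0.09). Besides JUP, AFDN (afadin; 0.19, adjusted p = 0.0022) and NECTIN2 (0.22, adjusted p = 0.0045) rose, and PKP4, a plakophilin-related catenin, fell by 0.17 (adjusted p = 0.0024). The core catenins of cadherin complexes were abundant and not called. CTNNB1 (beta-catenin) had 666 ± 11.7 CPM in ADC and 684 ± 3.67 CPM in PBS cells (-0.04, adjusted p = 0.36), CTNNA1 (alpha-catenin) had a log2 fold change of 0.05 (adjusted p = 0.22) and CTNND1 (p120-catenin) one of 0.00 (adjusted p = 0.99).

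Around vimentin, 8 of 16 other intermediate filament genes were tested, with 1 higher and 1 lower. NES (nestin), a filament protein that assembles with vimentin, had 30.02 ± 0.529 CPM in ADC and 20.2 ± 1.59 CPM in PBS cells (0.57, SE 0.0658, adjusted p = 1.3e-07). LMNB1, a lamin of the nuclear envelope, had 226 ± 4.99 CPM in ADC and 256 ± 4.94 CPM in PBS cells (-0.18, adjusted p = 5e-05), and LMNA was not called (0.05, adjusted p = 0.28). Of 16 tested partners and kinases of vimentin 3 rose and 4 fell (43.8% called; median -0.03). The plakins that tie filaments to other structures went both ways, with PLEC at 1111 ± 149 CPM in ADC and 1398 ± 43.8 CPM in PBS cells (-0.33, adjusted p = 1.7e-05) and DST at 195 ± 13.9 CPM in ADC and 160 ± 14.7 CPM in PBS cells (0.28, adjusted p = 6.7e-05). LGALS3 (galectin-3) rose (0.50, adjusted p = 4.8e-06), and AURKB, a mitotic kinase that phosphorylates vimentin, fell by 0.19 (adjusted p = 0.00056).

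Of the related lists the mesenchymal effector genes, matrix components, proteases and receptors commonly read as output of the programme, had the highest share of calls. Of 37 tested 19 rose and 3 fell (59.5% called; median 0.19). The genes that rose include COL3A1, at 0.309 to 1.24 CPM in ADC and 0 to 0.341 CPM in PBS libraries. COL3A1 passed the filter on low counts through its ADC libraries. COL1A2, a chain of type I collagen, had 71.4 ± 10.4 CPM in ADC and 28.5 ± 2.45 CPM in PBS cells (1.33, SE 0.0734, adjusted p = 1.5e-14). MMP2, a gelatinase, rose by 0.66 on the log2 scale (adjusted p = 3.8e-12) and TNC, the matrix protein tenascin-C, by 0.49 (adjusted p = 8.1e-12). FN1 (fibronectin), at 3705 ± 222 CPM in ADC and 3811 ± 130 CPM in PBS cells, was not called (-0.04, adjusted p = 0.41). Of 10 housekeeping genes, read from the same fit with TMM scaling, 6 were called as well, 3 in each direction.

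For each called member the 3 protein-coding genes most alike in profile were taken by Pearson's r of log2 CPM over the 10 libraries, among 9629 candidates with a mean of at least 5 CPM. These values describe libraries that share the contrast of ADC with PBS and its scaling. For ZEB2 they were IARS2 (r = 0.975), TNFAIP3 (r = 0.974) and DNMT3A (r = 0.965), and 73 candidates had r above 0.9. IRF1 (r = 0.985), RIN3 (r = 0.966) and MYO9B (r = 0.957) came nearest to TWIST2, with 62 candidates above 0.9. The profile of CDH2 was nearest to SLC38A5 (r = 0.958), FBXL18 (r = 0.957) and RABEPK (r = 0.956), with 23 candidates above 0.9. TNFAIP3, an inhibitor of NF-kB signalling, had 16.4 ± 0.611 CPM in ADC and 12.9 ± 0.680 CPM in PBS cells (0.34, adjusted p = 0.0019), and the interferon-induced factor gene IRF1 11.3 ± 0.748 CPM in ADC and 8.50 ± 0.977 CPM in PBS cells (0.40, adjusted p = 0.0034).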

How the data were processed

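RNA-seq counts per gene were deposited by the authors as whole numbers, not normalised, for 10 libraries. Per the submitters' processing notes the build was hg38 and HISAT2, HISAT and TopHat2 were named without roles; neither the counting tool nor its strand setting is given in the sources used here. Each of the 58735 identifiers matches GENCODE release 29. Counts of 2 to 21 were even in 65.4% to 67.3% of cases, against 49.0% to 50.6% of counts of 1000 or more, so that both mates of a pair may have been counted.

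Counts were scaled with TMM factors (0.979 to 1.02) and filtered with filterByExpr (minimum count 10, minimum total count 15). ADC was tested against PBS with edgeR 4.0.16 (R 4.3.3) by the two-sided quasi-likelihood test, with Benjamini-Hochberg adjustment over 14504 genes at 0.05; every adjusted p comes from it unless another tool is named. SE is the absolute log2 fold change over the square root of F, and CPM is given with its SD (n = 5). "Called", "rose" and "fell" mean an adjusted p under 0.05. Total counts of 28262162 to 36463724 set the precision. DESeq2 1.42.0, limma-voom (limma 3.58.1), other scalings and filters, halved counts, a replicate block and leaving out each library were alternatives.

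The 8 genes and the related lists were chosen with earlier results of these data known. Some genes are named for their level or function. The others follow a rule: the 8 members, and up to 4 called genes per list by smallest adjusted p with the leading one of the opposite direction. The rule adds a fixed set of partners and the 3 nearest profiles of each called member. A gene that this rule names is not reported here. Levels by transcript length and cadherin shares were added after seeing the data. RefSeq (GRCh38.p14) held promoter windows for ZEB1, ZEB2, TWIST2, VIM, CDH2 and CRB3. Tested on 5 sets of simulated data with 200 changed genes each in the ADC against PBS design with 14504 genes, edgeR recovered 10.8% of the changes of 1.1-fold, 42.8% at 1.2-fold, 70.4% at 1.5-fold and 80.8% at 2-fold, and 7.41% of its calls were false. The share of changed genes was far below the 20.8% of genes called in the data. These rates therefore need not hold for the real contrast.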

Additional observations from a re-analysis of the deposited data

Results flagged for a closer look

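Each of the 8 genes was checked for a library far from the others in both groups, 16 sets of 5 libraries in all, and 3 were found, where chance alone flags about 1 in 20. SNAI1 had 0.653 CPM in ADC replicate 4, while the other ADC libraries lay between 1.94 and 2.07 CPM. In PBS replicate 4 SNAI1 had 3.29 CPM, while the other PBS libraries lay between 1.19 and 1.5 CPM. TWIST2 had 28.8 CPM in PBS replicate 2, while the other PBS libraries lay between 24.5 and 25.3 CPM. Without PBS replicate 2 the log2 fold change of TWIST2 was the largest of those obtained by leaving out a library, 0.27.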

How the results depend on the processing

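Under all 18 alternatives ZEB2 and TWIST2 stayed called higher, ZEB2 at 0.29 to 0.35 and TWIST2 at 0.20 to 0.27. The count of members called lower, 1 (CDH2), was 0 with scaling by library size alone and without PBS replicate 1, and 0 to 1 when libraries were left out in turn. VIM was called with library size alone and without PBS replicate 2. The cause was not tested. Scaling by library size alone gave 1835 genes higher and 1063 lower (63.3% higher, against 51.8%) and shifted the median of all genes to 0.02. The replicate numbers do not pair the libraries (correlations of same-numbered deviations -0.007 to 0.04), and with them as a block (replicate block) 1632 genes were higher and 1520 lower, and VIM was called (0.06, adjusted p = 0.046).

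Signs turned for uncalled genes. SNAI1 ranged from -0.087 to 0.3834 and TWIST1 from -0.0662 to 0.1013 when libraries were left out. CTNND1 was at -0.003 with limma-voom, -7e-04 without a filter and -0.0024 with the replicate block, and from -0.0339 to 0.0446 with libraries left out. CTBP1 was at 0.0215 with library size alone and 0.0023 for genes of at least 1 CPM, and from -0.0228 to 0.0249 with libraries left out. ZEB1-AS1 ranged from -0.0965 to 0.0182. Of 432 recomputed list counts 394 stayed within 1.5 times. Without division by length CDH2 held 55.2% of the summed cadherin level in ADC and 63.6% in PBS cells. Depth limits what can be read for CDH1 and other genes at a few counts.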
